A study of Mus musculus with 12 samples.

Results

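The collagen chains of mouse embryonic fibroblasts driven toward muscle are described here across 6 groups of libraries. A gene was counted as a collagen chain where its symbol had the form Col, a type number, the letter a and a chain number, and where its normalised value, reads divided by the library's size factor, averaged at least 10 over the 8 libraries of mixed cultures. Of 36229 genes in the table, 43 had such a symbol and 40 passed the minimum. The 40 comprised 11 fibrillar chains, 6 type IV chains of basement membranes, 2 multiplexins, 4 type VI chains, 7 fibril-associated chains, 3 short network chains, the anchoring fibril chain Col7a1, 4 membrane-spanning chains and 2 others. Just under the minimum lay Col6a4 at 7.97, Col9a2 at 5.05 and Col22a1 at 3.32, and just over it Col9a1 at 13.1 and Col4a3 at 13.3.

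The fibroblasts were C57BL/6. All groups, the controls included, received an adenovirus that carries the muscle transcription factor MyoD. It acted for 24 h at 2% horse serum, with insulin at 10 µg/ml, and 72 h of further culture followed. Mixed cultures of 4 genotypes were sequenced: Kdm5a-/-;Rb1-/- (DKO), Rb1-/- (Rb1 KO), Kdm5a-/- (Kdm5a KO) and wild type (WT). Kdm5a removes methyl groups from histone H3 and was found as a partner of the retinoblastoma protein, the product of Rb1, which restrains E2F factors. Myotubes of DKO and of WT were also isolated: cultures were trypsinised, myotubes were parted from smaller cells by gravity, and they recovered for 24 h in conditioned medium. These are called purified. Each of the 6 groups has 2 libraries. The labels do not say that the 2 came from separate cultures or embryos, so the p-values measure only the spread between libraries. Nor do they say how, or in which exons, Kdm5a and Rb1 were deleted.

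A collagen is built from 3 chains wound into a triple helix, which needs glycine at the first position of each repeated triplet of residues. Fibrillar chains assemble into the banded fibrils of connective tissue, type IV chains into the sheet of the basement membrane, and fibril-associated chains coat fibrils. In muscle, fibroblasts of the interstitium are known as the main source of fibrillar and type VI collagen, while muscle fibres carry a basement membrane of type IV collagen and membrane-spanning collagens at the nerve-muscle contact.

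The repeat can be read in the coding sequences of the GENCODE M21 transcripts, of which the first 12 triplets of the longest unbroken repeat are shown for a fibrillar, a basement membrane and a membrane-spanning chain whose levels moved apart. Capitals mark the glycine codons.
Col1a2: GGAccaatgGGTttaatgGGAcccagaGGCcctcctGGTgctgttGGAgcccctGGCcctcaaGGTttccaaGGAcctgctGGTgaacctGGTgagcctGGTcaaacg
Col4a1: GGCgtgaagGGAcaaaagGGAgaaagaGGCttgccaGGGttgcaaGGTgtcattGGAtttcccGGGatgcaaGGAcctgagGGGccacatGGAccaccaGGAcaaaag
Col25a1: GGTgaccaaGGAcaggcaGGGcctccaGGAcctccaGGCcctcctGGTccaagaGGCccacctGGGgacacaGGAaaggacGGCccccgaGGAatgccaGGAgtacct
The repeats start at codon 97 of Col1a2, 43 of Col4a1 and 189 of Col25a1. In Col1a2 the longest run held 339 triplets without a break, against 40 in Col4a1 and 40 in Col25a1. Col4a1 nevertheless had 436 triplets in 22 runs of at least 5, so its repeat is long and often interrupted. Among the fibrillar chains, Col3a1 had the longest run with 344 triplets, while Col24a1 and Col27a1 stopped at 216 and 217.

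RefSeq promoter windows of GRCm38.p6, from 250 bases before to 50 after the gene start, were found for 32 of the 40 chains. The pair Col4a1 and Col4a2 shares a promoter region, with starts 21 bases apart on opposite strands. Col4a5 and Col4a6 form a second such pair, with starts 1343 bases apart. Windows are printed for Col4a2, as the region shared by the pair Col4a1 and Col4a2, for the membrane-spanning Col25a1 and Col13a1, which were low in Rb1 KO cultures, and for Col8a1, which was high there. The windows are chr8:11312555-11312854 (plus strand), chr3:130180595-130180894 (plus), chr10:61979059-61979358 (minus) and chr16:57754688-57754987 (minus), each 5′ to 3′ on the gene's strand. Capitals mark CANNTG, the E-box that MyoD and related factors bind, and CCGCCC or its reverse complement GGGCGG, the GC box.
Col4a2: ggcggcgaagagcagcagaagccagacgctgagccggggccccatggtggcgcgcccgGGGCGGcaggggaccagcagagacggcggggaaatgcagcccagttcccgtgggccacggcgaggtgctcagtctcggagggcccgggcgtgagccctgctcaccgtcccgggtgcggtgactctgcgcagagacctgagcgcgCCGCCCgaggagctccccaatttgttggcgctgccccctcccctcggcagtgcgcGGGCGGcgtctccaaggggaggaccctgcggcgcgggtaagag
Col25a1: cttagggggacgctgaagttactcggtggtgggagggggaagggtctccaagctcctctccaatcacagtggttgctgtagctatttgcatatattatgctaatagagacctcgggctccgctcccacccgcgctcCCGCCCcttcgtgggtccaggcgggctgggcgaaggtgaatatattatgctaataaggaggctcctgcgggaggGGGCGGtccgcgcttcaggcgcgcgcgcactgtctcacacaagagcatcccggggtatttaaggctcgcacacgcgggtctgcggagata
Col13a1: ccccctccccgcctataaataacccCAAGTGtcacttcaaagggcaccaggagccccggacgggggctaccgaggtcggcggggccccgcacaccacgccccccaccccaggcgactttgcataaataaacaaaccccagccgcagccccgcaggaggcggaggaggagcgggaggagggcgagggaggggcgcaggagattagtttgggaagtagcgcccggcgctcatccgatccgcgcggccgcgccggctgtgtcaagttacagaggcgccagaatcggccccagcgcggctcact
Col8a1: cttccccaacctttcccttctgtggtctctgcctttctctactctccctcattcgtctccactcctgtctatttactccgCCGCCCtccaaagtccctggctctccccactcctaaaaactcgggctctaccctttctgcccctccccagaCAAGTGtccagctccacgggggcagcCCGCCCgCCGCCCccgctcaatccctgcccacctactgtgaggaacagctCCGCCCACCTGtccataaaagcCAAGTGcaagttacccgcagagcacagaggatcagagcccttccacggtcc
CANNTG occurred 0 times in the Col4a2 and Col25a1 windows, 1 time in that of Col13a1 and 3 times in that of Col8a1, where 1 base of an E-box overlaps a GC box. With the first listed window of each gene, 17 of 32 chains (53.1%) held CANNTG, against 72.1% of all 27025 genes with a window. CCGCCC on either strand was in 19 (59.4%), against 35.9% of all genes. CAGCTG, the E-box form often bound by MyoD, was in 15.6% of chains and 16.1% of all genes. These are matches of letters and no sites of binding.

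The 12 libraries held 8688604 to 41309134 reads, recovered from the normalised values, and DKO purified replicates stood further apart from each other than those of other groups, with a median absolute log2 difference of 0.508 over genes against 0.106 to 0.185. The Kdm5a value was 1319 and 1369.7 in DKO, 2094 and 1886 in Rb1 KO, 1088 and 1192 in Kdm5a KO and 1637 and 1871 in WT cultures, and 787 and 614 in purified DKO against 3033 and 2775 in purified WT myotubes. The Rb1 value was 5309 and 5662 in DKO, 4457 and 4448 in Rb1 KO, 5079 and 5193 in Kdm5a KO and 5616 and 5649.5 in WT cultures, so Rb1 was lower than WT in Rb1 KO (log2 change -0.34 ± 0.051 SE, adjusted p = 5.31e-05) but not past the threshold in DKO. Purified DKO myotubes had 2356 and 2104 for Rb1, against 3499.5 and 3218 in purified WT myotubes. A whole-gene value adds reads from exons that a deletion may leave, so these values are no check of the Rb1 label, and groups carry the names given by the labels. Ddx3y, on the Y chromosome, was listed at 0 in Kdm5a KO, DKO and purified DKO. It was at 3319 and 3308 in WT, 1267 and 1080 in Rb1 KO and 2752 and 2548 in purified WT. Xist was listed at 0 in WT and Rb1 KO mixed cultures and at 1.86 and 2.48 in purified WT. It was at 3110 and 3251 in Kdm5a KO, 6933 and 6810 in DKO and 9881 and 9261 in purified DKO. The sex of the cells and the Kdm5a genotype therefore cannot be told apart in any comparison between Kdm5a-null and Kdm5a-intact cells. This touches most directly the X-linked Col4a5 and Col4a6. Of the 40 chains, 8 share exon bases with another gene in the annotation, Col9a3 the most.

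Cell type markers moved with genotype. Summed over 10 skeletal muscle markers, normalised values were 157714 to 174040 in DKO, 49359.8 to 50039 in Rb1 KO, 356684 to 375097 in Kdm5a KO and 370307 to 407241 in WT cultures, and all 10 fell against WT in both DKO and Rb1 KO. Over 10 fibroblast markers the sums were 6691 to 7118 in DKO, 50821 to 58192 in Rb1 KO, 5861 to 6233 in Kdm5a KO and 5489 to 5828 in WT cultures. Fibroblast markers rose against WT in 9 of 10 cases in Rb1 KO and 8 in DKO, and fell in 8 of 10 in DKO against Rb1 KO. Beside these counts, 36.8% of all genes were higher and 34.3% lower than WT in Rb1 KO, and 34.0% and 33.9% in DKO. In DKO against Rb1 KO, 24.2% of all genes were lower. In these bulk samples, fewer cells of a type and less RNA per cell cannot be told apart, and the part of the change in cell make-up in the collagen values was not tested. Cartilage markers summed to 912 to 1147 in DKO, 715 to 729 in Rb1 KO, 129 to 169 in Kdm5a KO and 94.9 to 105 in WT cultures, with Acan at 0 in Kdm5a KO and Matn1 at 0 in WT. Matn3 made up most of the sums in DKO (785 and 1003) and Rb1 KO (606 and 563), against 23.9 and 11.7 in WT. Of 3 cartilage markers tested, 1 was higher than WT in each of DKO and Rb1 KO, and 2 did not pass. Bone markers summed to 514 to 542 in DKO, 1218 to 1356 in Rb1 KO, 373 to 375 in Kdm5a KO and 258 to 399.6 in WT, with Ibsp at 0 in Kdm5a KO and WT. Runx2 made up most of each sum, at 497 and 526 in DKO, 1199 and 1349 in Rb1 KO and 377 and 233 in WT. Of 2 bone markers tested, 1 was higher than WT in each of DKO and Rb1 KO, and 1 did not pass. Endothelial markers reached 358 and macrophage markers 225 at most in any mixed library. All 5 proliferation markers were higher than WT in DKO and in Rb1 KO, beside 34.0% and 36.8% of all genes.

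Rb1 KO cultures held the most collagen RNA. Collagen chains took 0.180 and 0.188% of reads in DKO libraries, 0.606 and 0.715% in Rb1 KO, 0.205 and 0.199% in Kdm5a KO and 0.191 and 0.193% in WT. Only the Rb1 KO libraries stood apart among these 8. Purified DKO myotubes had 0.186 and 0.178%, against 0.346 and 0.370% in purified WT myotubes. Of the 40 chains, 25 had their highest mixed-culture mean in Rb1 KO, 8 in Kdm5a KO, 4 in WT and 3 in DKO. This ranks means without a test, and the same count was not made over all genes.

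The make-up changed as well as the total. Fibrillar chains made up 40.9 and 41.2% of the summed value per kilobase of exon in DKO libraries, 57.5 and 59.7% in Rb1 KO, 25.4 and 24.8% in Kdm5a KO and 29.0 and 28.8% in WT. Membrane-spanning chains showed the opposite order, with 5.41 and 5.54% in DKO, 0.956 and 0.810% in Rb1 KO, 30.6 and 32.3% in Kdm5a KO and 20.1 and 20.5% in WT. Kdm5a KO and WT cultures thus had the most membrane-spanning collagen, and Rb1 KO the least. In purified WT myotubes type IV chains dominated, at 53.8 and 53.8%, against 24.5 and 26.6% in purified DKO myotubes. Purified and mixed libraries differ in RNA selection, read length, instrument and recovery, so their levels are set side by side without a test.

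**Figure D1:**
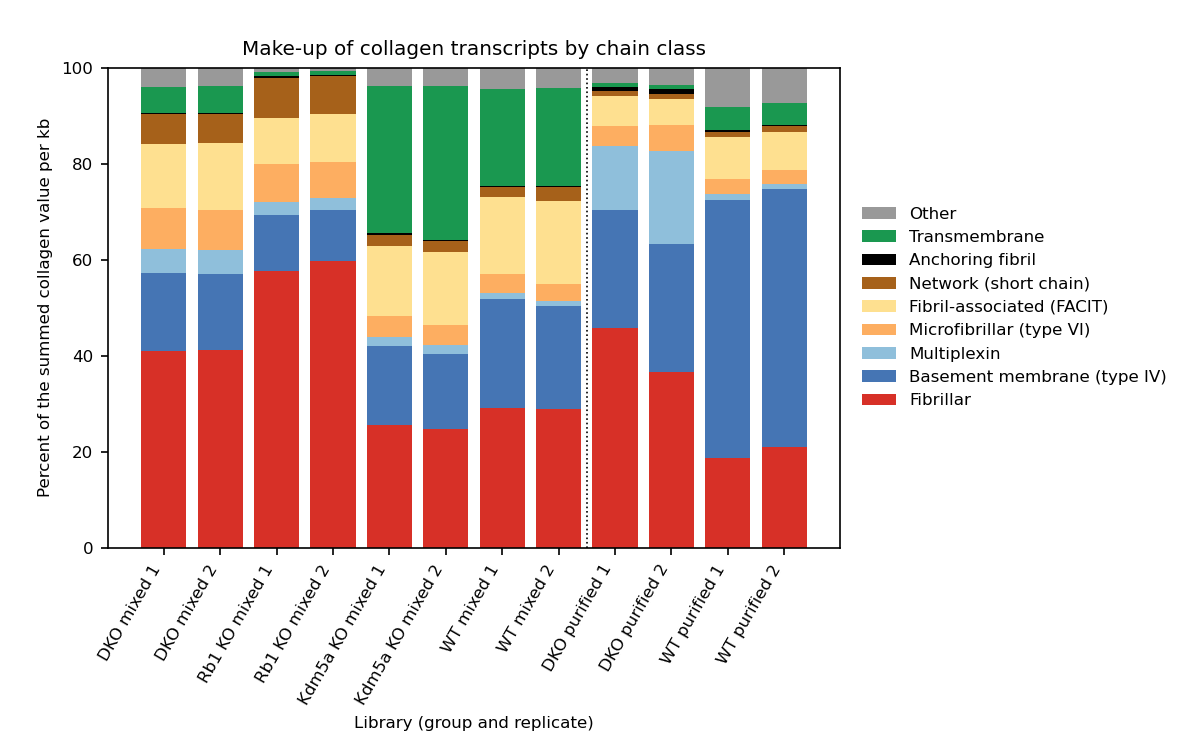
Percent of the summed normalised value per kilobase of exon that each class of collagen chain took, as stacked bars from 0 to 100%, in each of 12 libraries. Fibrillar chains took 57.5 and 59.7% in the Rb1 KO libraries, membrane-spanning chains were largest in Kdm5a KO and WT mixed libraries, and type IV chains in purified WT myotubes.

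Per kilobase, the most abundant chain was Col3a1 in DKO (593 ± 16.1, SD, n = 2) and in Rb1 KO cultures (2326 ± 439), but Col25a1 in Kdm5a KO (955 ± 48.2) and in WT cultures (669.8 ± 18.6). Purified DKO myotubes had most of Col18a1 (538 ± 207), with Col1a2 next at 487 ± 114, a difference within the spread of the libraries. Purified WT myotubes had most of Col4a2 (2362 ± 69.4), followed by Col4a1 (1619.7 ± 67.4).

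**Figure D2:**
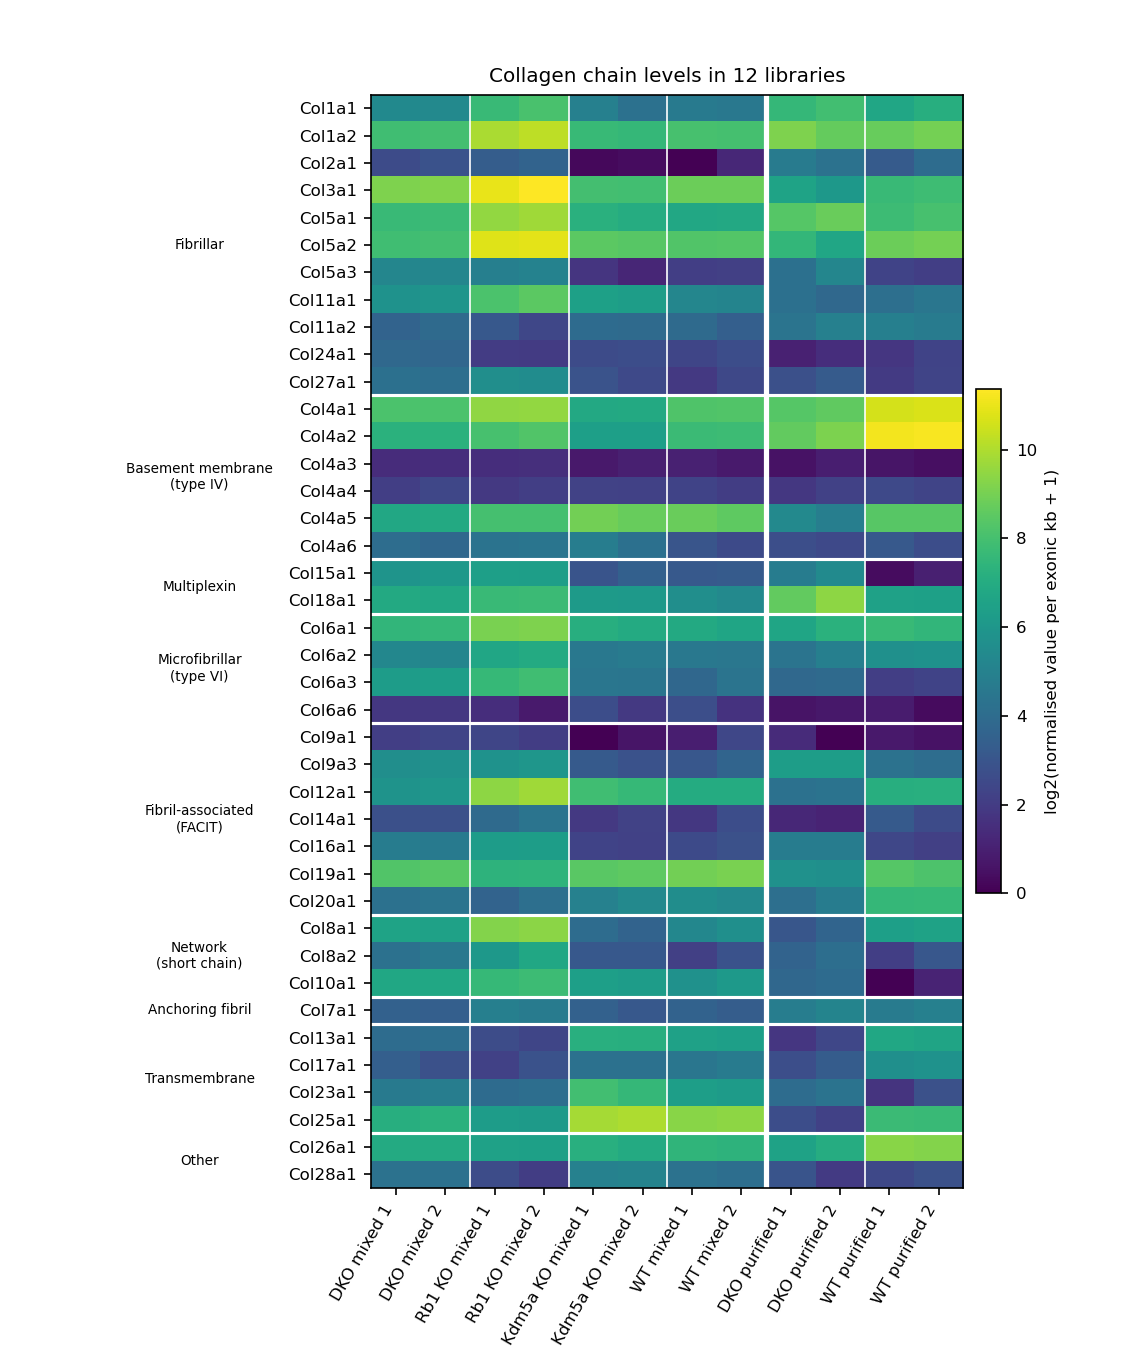
Heat map of log2(normalised value per exonic kilobase + 1) for 40 collagen chains (rows, grouped by class) in 12 libraries (columns, 2 per group; the thick line parts mixed from purified). Of the mixed groups, Rb1 KO is brightest for Col3a1, Col5a2, Col1a2, Col8a1 and Col12a1, and Col25a1 and Col13a1 in Kdm5a KO and WT.

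Against WT, Rb1 KO cultures had more of nearly every fibrillar, type VI, multiplexin and network chain and less of every membrane-spanning chain. Of 40 chains tested, 25 were higher and 11 lower in Rb1 KO than in WT, where 36.8% of all genes were higher and 34.3% lower at an adjusted p under 0.05 (limma, Benjamini-Hochberg). The median log2 change of the 40 was 1.90, against 0.03 over all genes. Of the 25 higher chains, 24 had risen at least 2-fold, beside 22.9% of all genes. Col2a1, among these 24, averaged 6.40 in WT and passed the minimum only through DKO and Rb1 KO. All log2 changes are differences between group means of log2(value + 1). For low genes they can lie below or above the ratio of reads per size factor.

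DKO cultures lay closer to WT. Of 40 chains, 19 were higher and 11 lower in DKO than in WT, beside 34.0% and 33.9% of all genes, so the share that fell was near that of all genes. The median log2 change of the chains was 0.65, against -0.0036 over all genes. Directly against Rb1 KO, 8 chains were higher and 21 lower in DKO, beside 23.1% and 24.2% of all genes. Their median log2 change was -0.88, against -0.01. Compared with Kdm5a KO, 21 chains were higher and 10 lower in DKO, beside 33.7% and 33.4% of all genes. The 19 higher than WT include Col2a1, and the 21 include Col2a1 and Col9a1. These averaged 2.30 and 1.40 in Kdm5a KO and passed the minimum only through other groups.

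Kdm5a KO changed fewer chains against WT, with 9 higher and 9 lower of 40, beside 13.4% and 13.8% of all genes. Col9a1, among the 9 lower, averaged 1.40 in Kdm5a KO and passed the minimum only through the other groups. The median log2 change of the 40 chains was 0.07, against 0.01 over all genes. The comparisons of DKO, Rb1 KO and Kdm5a KO against WT share the same 2 WT libraries.

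**Figure D3:**
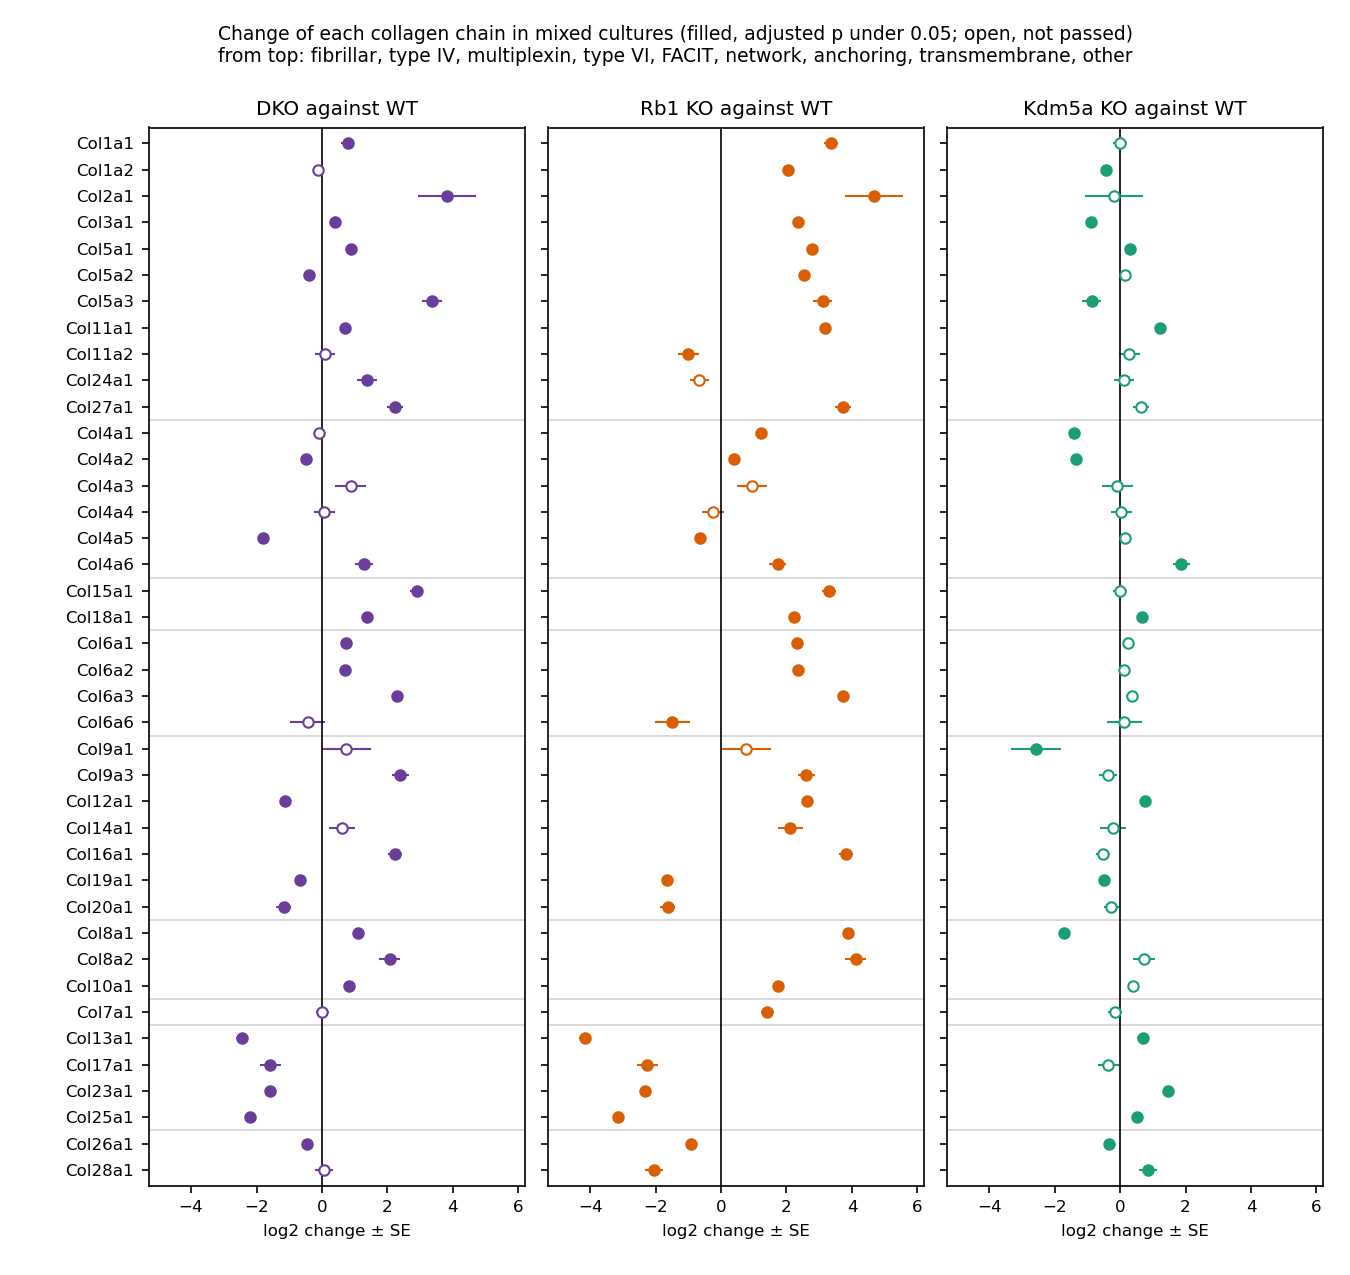
Log2 change with SE of each of 40 collagen chains in DKO, Rb1 KO and Kdm5a KO mixed cultures against WT (n = 2 each); filled points passed an adjusted p of 0.05, open points did not, and grey lines part the classes. In Rb1 KO, 9 of 11 fibrillar chains lie right of 0 and all 4 membrane-spanning chains left of it.

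Among fibrillar chains, Col1a1, Col1a2, Col3a1, Col5a1 and Col5a2 were higher in Rb1 KO than in WT by 2.06 to 3.36 on the log2 scale, while in DKO they ranged from -0.39 to 0.87. Col1a2, a chain of type I collagen, had normalised values of 2928 and 3096 in DKO cultures, 12061 and 15142 in Rb1 KO cultures, 2530.2 and 2334 in Kdm5a KO cultures and 3313 and 3179.7 in WT cultures. Both Rb1 KO libraries lay far above the other 6, and Kdm5a KO lay below WT. The log2 change against WT was 2.06 ± 0.088 (SE; adjusted p = 3.93e-10) in Rb1 KO and -0.42 ± 0.088 (SE; adjusted p = 0.00389) in Kdm5a KO, of which the second did not pass without the intensity trend (adjusted p = 0.0793). DKO did not pass against WT (-0.11 ± 0.088 SE, adjusted p = 0.291) and was lower than Rb1 KO by 2.17 on the log2 scale. Its partner Col1a1 had 266 and 260.3 in DKO cultures, 1358 and 1818 in Rb1 KO cultures, 197 and 117 in Kdm5a KO cultures and 158 and 147 in WT cultures. The 2 DKO values lay above those of WT, with a log2 change of 0.78 ± 0.21 (SE; adjusted p = 0.00516), and Rb1 KO lay above both (3.36 ± 0.21 SE, adjusted p = 1.41e-08).

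Col3a1, the chain of type III collagen that forms thin fibrils with type I, had 5712 and 5935 in DKO cultures, 19782 and 25881 in Rb1 KO cultures, 2413 and 2376 in Kdm5a KO cultures and 4379 and 4399 in WT cultures. No groups overlapped, in the order Rb1 KO, DKO, WT, Kdm5a KO. Log2 changes against WT were 2.37 ± 0.091 (SE; adjusted p = 1.59e-10) in Rb1 KO, 0.41 ± 0.091 (SE; adjusted p = 0.00157) in DKO and -0.87 ± 0.091 (SE; adjusted p = 2.66e-05) in Kdm5a KO. Type V collagen starts the growth of type I fibrils. Its chain Col5a2 had 2246 and 2391 in DKO cultures, 17174 and 18364 in Rb1 KO cultures, 3432 and 3291 in Kdm5a KO cultures and 3007 and 3077 in WT cultures, and Col5a1 had 1745 and 1801 in DKO cultures, 6145 and 7176 in Rb1 KO cultures, 1264 and 1115 in Kdm5a KO cultures and 959.6 and 974 in WT cultures. Col5a2 was lower in DKO than in WT (-0.39 ± 0.056 SE, adjusted p = 4.40e-05) although Rb1 KO exceeded WT (2.55 ± 0.056 SE, adjusted p = 1.46e-12), while Col5a1 was higher than WT in DKO (0.87 ± 0.083 SE, adjusted p = 9.50e-07) as well as in Rb1 KO (2.78 ± 0.083 SE, adjusted p = 1.53e-11). Kdm5a KO did not pass for Col5a2 (0.14 ± 0.056 SE, adjusted p = 0.0776).

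Col5a3, a further chain of type V, behaved unlike the other type V chains. It had 243 and 250.1 in DKO cultures, 199.8 and 214 in Rb1 KO cultures, 16.3 and 9.10 in Kdm5a KO cultures and 22.7 and 23.5 in WT cultures, so DKO and Rb1 KO were high, and WT and Kdm5a KO low. DKO against Rb1 KO did not pass (0.25 ± 0.29 SE, adjusted p = 0.511). DKO exceeded WT by 3.36 ± 0.29 (SE; adjusted p = 4.26e-07) and Kdm5a KO by 4.23 ± 0.29 (SE; adjusted p = 5.07e-08) on the log2 scale. The lower value in Kdm5a KO than in WT (-0.87 ± 0.29 SE, adjusted p = 0.0446) no longer passed without Kdm5a KO replicate 2 (adjusted p = 0.251), WT replicate 1 (0.078) or WT replicate 2 (0.0901). Nor did it pass with the replicate block (adjusted p = 0.0519), with edgeR (0.0726), with DESeq2 (0.1) or with Kdm5a KO and WT alone (0.263).

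The chains named for cartilage were also measured. Col11a1, a chain of type XI collagen, had 702 and 767 in DKO cultures, 3576 and 4636 in Rb1 KO cultures, 1095 and 1006 in Kdm5a KO cultures and 462 and 438 in WT cultures. It was higher than WT in all 3 knockouts, by 0.70 in DKO, 3.18 in Rb1 KO and 1.22 in Kdm5a KO on the log2 scale. Its partner Col11a2 had 76.8 and 96.8 in DKO cultures, 54.0 and 29.9 in Rb1 KO cultures, 99.5 and 98.7 in Kdm5a KO cultures and 98.1 and 67.2 in WT cultures, lowest in Rb1 KO. That fall against WT (-1.0 ± 0.31 SE, adjusted p = 0.0124) did not pass without Rb1 KO replicate 2 (adjusted p = 0.129) or WT replicate 1 (0.0919), and the higher value in DKO than in Rb1 KO (1.08 ± 0.31 SE, adjusted p = 0.0126) did not without Rb1 KO replicate 2 (0.121) or DKO replicate 2 (0.111).

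Col2a1, the chain of type II collagen of cartilage, had 46.3 and 57.3 in DKO cultures, 85.1 and 103 in Rb1 KO cultures, 1.81 and 2.80 in Kdm5a KO cultures and 0 and 12.8 in WT cultures. It passed the minimum only through DKO and Rb1 KO, where it is high, so its differences from WT are given as a description. Its WT libraries held 0 and 12 reads, and the log2 change of Rb1 KO against WT was 4.67, 2.78 without WT replicate 1 and 6.57 without WT replicate 2. As a ratio of reads per size factor, Rb1 KO was 14.2-fold WT (95% exact interval 7.92 to 28.0, counting error only). For DKO against WT the log2 change was 3.82, with 1.93 and 5.71 without the first and second WT library. The minor fibrillar chain Col24a1 had 99.9 and 93.6 in DKO cultures, 23.0 and 22.6 in Rb1 KO cultures, 38.0 and 42.0 in Kdm5a KO cultures and 32.3 and 41.6 in WT cultures, highest in DKO and above both Rb1 KO (2.04 ± 0.30 SE, adjusted p = 1.16e-04) and WT (1.38 ± 0.30 SE, adjusted p = 0.00128). Col27a1, with the same shortened repeat, had 225 and 209 in DKO cultures, 628 and 584 in Rb1 KO cultures, 84.1 and 60.2 in Kdm5a KO cultures and 34.7 and 58.6 in WT cultures and was highest in Rb1 KO (3.72 ± 0.25 SE, adjusted p = 2.56e-08 against WT).

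**Figure D4:**
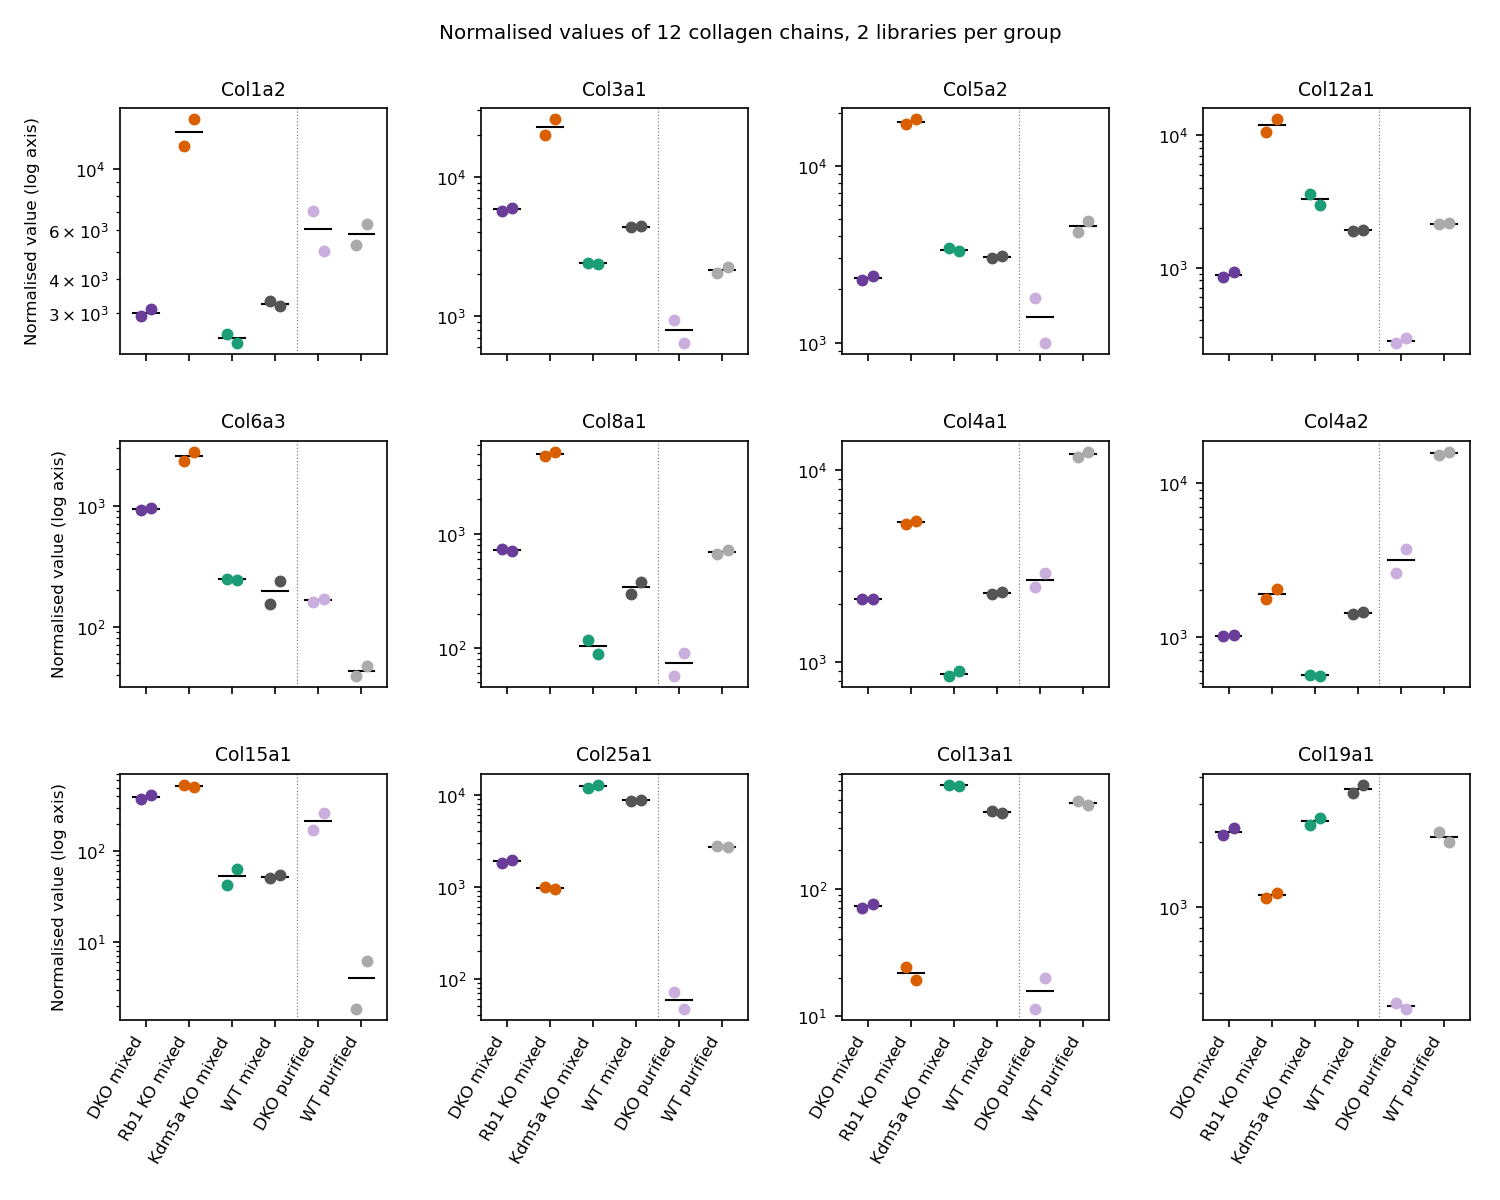
Normalised values (log axis) of 12 collagen chains in each library, coloured by group, with a bar at the mean of the 2 libraries; the dotted line parts mixed from purified groups. Col1a2, Col3a1, Col5a2, Col12a1, Col6a3, Col8a1 and Col4a1 are highest of the mixed groups in Rb1 KO, and Col25a1, Col13a1 and Col19a1 lowest there.

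Of the fibril-associated chains, only Col12a1 was highest in Rb1 KO and lowest in DKO among the mixed groups. Col12a1, the large chain of type XII collagen in tendon and muscle connective tissue, had 843 and 928 in DKO cultures, 10609 and 13157 in Rb1 KO cultures, 3584 and 2963 in Kdm5a KO cultures and 1901 and 1935 in WT cultures. The groups did not overlap. DKO was below WT (-1.12 ± 0.10 SE, adjusted p = 7.23e-07), while Rb1 KO (2.62 ± 0.10 SE, adjusted p = 1.83e-10) and Kdm5a KO (0.76 ± 0.10 SE, adjusted p = 1.72e-04) were above it. DKO against Rb1 KO was -3.74 ± 0.10 (SE; adjusted p = 5.21e-11), the largest fall of any of the 40 chains in that comparison.

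Col14a1, the related type XIV chain, had 41.0 and 40.3 in DKO cultures, 99.9 and 138 in Rb1 KO cultures, 19.0 and 26.6 in Kdm5a KO cultures and 17.9 and 38.4 in WT cultures, highest in Rb1 KO (2.11 ± 0.39 SE, adjusted p = 2.92e-04 against WT). Col16a1 had 180.4 and 165 in DKO cultures, 517 and 536 in Rb1 KO cultures, 26.2 and 23.8 in Kdm5a KO cultures and 32.3 and 40.5 in WT cultures. Both Rb1-null genotypes were high for Col16a1, with log2 changes against WT of 2.22 ± 0.22 (SE; adjusted p = 1.27e-06) in DKO and 3.83 ± 0.22 (SE; adjusted p = 5.80e-09) in Rb1 KO. Col9a3, a chain of the cartilage fibril-associated type IX, had 183 and 203 in DKO cultures, 209 and 239.9 in Rb1 KO cultures, 31.7 and 23.8 in Kdm5a KO cultures and 28.7 and 44.8 in WT cultures and rose likewise (2.40 ± 0.27 SE, adjusted p = 4.96e-06 in DKO and 2.61 ± 0.27 SE, adjusted p = 1.86e-06 in Rb1 KO). Some 6.07% of its exon length is shared with Tcfl5 on the other strand, and strand was not stated, so its reads may be split. Its partner Col9a1 had 16.8 and 20.1 in DKO cultures, 21.6 and 16.3 in Rb1 KO cultures, 0 and 2.80 in Kdm5a KO cultures and 4.79 and 22.4 in WT cultures, resting on 4 reads in Kdm5a KO and 25 in WT. Col9a1 averaged 1.40 in Kdm5a KO and passed the minimum only through DKO, Rb1 KO and WT, so its differences from Kdm5a KO are given as a description. The log2 change of Kdm5a KO against WT was -2.58, and -3.58 to -1.57 with 1 of their libraries left out. DKO against Kdm5a KO was 3.32, with 2.35 without the first and 4.28 without the second Kdm5a KO library.

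Col19a1, a fibril-associated chain made by embryonic muscle, ran the other way. It had 2155 and 2317 in DKO cultures, 1107 and 1165 in Rb1 KO cultures, 2400 and 2593 in Kdm5a KO cultures and 3375 and 3692 in WT cultures, highest in WT and lowest in Rb1 KO. The log2 change against WT was -0.66 ± 0.071 (SE; adjusted p = 3.04e-06) in DKO, -1.64 ± 0.071 (SE; adjusted p = 4.53e-10) in Rb1 KO and -0.50 ± 0.071 (SE; adjusted p = 2.50e-04) in Kdm5a KO. No groups overlapped, though DKO against Kdm5a KO did not pass (-0.16 ± 0.071 SE, adjusted p = 0.0638). Col20a1 fell with it, by 1.18 in DKO and 1.63 in Rb1 KO against WT on the log2 scale.

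Among type IV chains, the common pair Col4a1 and Col4a2 was highest in Rb1 KO and lowest in Kdm5a KO. Col4a1 had 2136 and 2128 in DKO cultures, 5258 and 5431 in Rb1 KO cultures, 847 and 896 in Kdm5a KO cultures and 2266 and 2313 in WT cultures. Col4a2 had 1010.0 and 1022 in DKO cultures, 1749 and 2048 in Rb1 KO cultures, 566 and 555 in Kdm5a KO cultures and 1399 and 1452 in WT cultures. Kdm5a KO lay below all other mixed libraries for both genes, by -1.39 ± 0.059 (SE; adjusted p = 1.53e-08) for Col4a1 and -1.35 ± 0.083 (SE; adjusted p = 4.98e-07) for Col4a2 against WT. Rb1 KO exceeded WT by 1.22 ± 0.059 (SE; adjusted p = 1.33e-09) for Col4a1 and 0.41 ± 0.083 (SE; adjusted p = 7.14e-04) for Col4a2. In DKO, Col4a2 was below WT (-0.49 ± 0.083 SE, adjusted p = 1.98e-04) and Col4a1 did not pass (-0.10 ± 0.059 SE, adjusted p = 0.142). The pair shares 22 bases of exon on opposite strands, and Col4a2 also overlaps Gm15419.

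The ratio of Col4a1 to Col4a2 per kilobase was 1.88 and 1.85 in DKO, 2.67 and 2.35 in Rb1 KO, 1.33 and 1.43 in Kdm5a KO and 1.44 and 1.41 in WT cultures. Rb1 KO libraries had the highest ratio, then DKO. In purified myotubes it was 0.840 and 0.688 in DKO and 0.680 and 0.691 in WT.

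The X-linked pair Col4a5 and Col4a6, which form the type IV network of smooth muscle, differed in pattern. Col4a5 had 743 and 793 in DKO cultures, 1729.7 and 1713 in Rb1 KO cultures, 3269 and 2805 in Kdm5a KO cultures and 2919 and 2494 in WT cultures, lowest in DKO. Its change against WT was -1.81 ± 0.089 (SE; adjusted p = 2.18e-09) in DKO and -0.65 ± 0.089 (SE; adjusted p = 2.58e-05) in Rb1 KO, and did not pass in Kdm5a KO (0.17 ± 0.089 SE, adjusted p = 0.191). Col4a6 had 127 and 104 in DKO cultures, 153 and 161 in Rb1 KO cultures, 214 and 139 in Kdm5a KO cultures and 56.2 and 38.4 in WT cultures, lowest in WT, and was higher in DKO (1.28 ± 0.26 SE, adjusted p = 7.67e-04), Rb1 KO (1.73 ± 0.26 SE, adjusted p = 5.78e-05) and Kdm5a KO (1.87 ± 0.26 SE, adjusted p = 2.23e-04). Smooth muscle and myofibroblast markers summed to 18476 to 18778 in DKO, 42535 to 43209 in Rb1 KO, 28714 to 28852 in Kdm5a KO and 39657 to 40091 in WT cultures. Acta2 made up most of each sum, at 15912 and 15702 in DKO, 32211 and 32457 in Rb1 KO and 37230 and 37645 in WT. By number, 4 of the 5 markers were higher and 1 lower in Rb1 KO than in WT, and 3 higher and 2 lower in DKO. Of all genes, 36.8% were higher and 34.3% lower in Rb1 KO, and 34.0% and 33.9% in DKO. The part of these markers in the Col4a5 and Col4a6 values was not tested. Col4a3 and Col4a4, known from the kidney filter, did not pass in any comparison in which they were tested.

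Both multiplexins, which sit at the outer face of basement membranes, were higher where Rb1 was lacking. Col15a1 had 372 and 417 in DKO cultures, 537 and 511 in Rb1 KO cultures, 42.5 and 64.4 in Kdm5a KO cultures and 50.3 and 54.4 in WT cultures. All DKO and Rb1 KO libraries lay far above Kdm5a KO and WT, which overlapped. The change against WT was 2.89 ± 0.21 (SE; adjusted p = 6.40e-08) in DKO and 3.30 ± 0.21 (SE; adjusted p = 1.40e-08) in Rb1 KO, and DKO against Rb1 KO did not pass (-0.41 ± 0.21 SE, adjusted p = 0.122). Col18a1, whose end fragment is endostatin, had 828 and 788 in DKO cultures, 1441 and 1482 in Rb1 KO cultures, 505 and 495 in Kdm5a KO cultures and 341 and 284 in WT cultures, with changes against WT of 1.37 ± 0.10 (SE; adjusted p = 8.20e-08) in DKO, 2.23 ± 0.10 (SE; adjusted p = 6.77e-10) in Rb1 KO and 0.68 ± 0.10 (SE; adjusted p = 3.41e-04) in Kdm5a KO.

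Type VI chains, which form the beaded filaments beside the muscle basement membrane, rose together in Rb1 KO. Col6a1 had 774 and 831 in DKO cultures, 2343 and 2551 in Rb1 KO cultures, 612 and 543 in Kdm5a KO cultures and 528 and 448 in WT cultures. Col6a2 had 308 and 292 in DKO cultures, 863 and 1025 in Rb1 KO cultures, 187 and 213 in Kdm5a KO cultures and 188 and 181 in WT cultures, and Col6a3 930.0 and 964 in DKO cultures, 2343 and 2782 in Rb1 KO cultures, 249.6 and 242 in Kdm5a KO cultures and 154 and 238 in WT cultures. For all 3, Rb1 KO was highest and DKO next, and Kdm5a KO and WT were lowest. Log2 changes against WT were 2.33, 2.34 and 3.73 in Rb1 KO and 0.72, 0.70 and 2.30 in DKO for Col6a1, Col6a2 and Col6a3, all past the threshold. None of the 3 passed in Kdm5a KO. The fourth, Col6a6, averaged 27.2 over mixed libraries and was lower in Rb1 KO than in WT (-1.49 ± 0.53 SE, adjusted p = 0.0239), a difference that did not pass without Rb1 KO replicate 2 (adjusted p = 0.187) or WT replicate 1 (0.215).

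The 3 short network chains were also highest in Rb1 KO and next in DKO. Col8a1, a chain of vessel walls and the cornea's inner membrane, had 740.1 and 704 in DKO cultures, 4834 and 5213 in Rb1 KO cultures, 118 and 89.6 in Kdm5a KO cultures and 297 and 383 in WT cultures. No groups overlapped, and changes against WT were 1.10 ± 0.14 (SE; adjusted p = 1.60e-05) in DKO, 3.89 ± 0.14 (SE; adjusted p = 8.79e-11) in Rb1 KO and -1.71 ± 0.14 (SE; adjusted p = 4.51e-06) in Kdm5a KO. Col8a2, its partner, had 80.5 and 102 in DKO cultures, 294 and 479 in Rb1 KO cultures, 35.3 and 35.0 in Kdm5a KO cultures and 15.6 and 27.7 in WT cultures, with 4.11 ± 0.32 (SE; adjusted p = 1.34e-07) in Rb1 KO and 2.07 ± 0.32 (SE; adjusted p = 9.18e-05) in DKO against WT. Col10a1, the chain of hypertrophic cartilage, had 334 and 341 in DKO cultures, 612 and 682 in Rb1 KO cultures, 263 and 237 in Kdm5a KO cultures and 165 and 222 in WT cultures and was 1.75 ± 0.15 (SE; adjusted p = 2.87e-07) in Rb1 KO against WT. Col7a1, the anchoring fibril chain of skin, was also highest in Rb1 KO (1.42 ± 0.20 SE, adjusted p = 3.96e-05 against WT).

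The membrane-spanning chains, known from muscle, nerve and epithelium, fell in both Rb1-null genotypes. All 4 were lower than WT in DKO and in Rb1 KO. Col25a1, which mouse muscle makes to attract motor axons, had 1816 and 1967 in DKO cultures, 1003 and 947 in Rb1 KO cultures, 11925 and 12808 in Kdm5a KO cultures and 8502 and 8842 in WT cultures. The 4 groups did not overlap, in the order Kdm5a KO, WT, DKO, Rb1 KO. Changes against WT were -2.20 ± 0.062 (SE; adjusted p = 2.08e-11) in DKO, -3.15 ± 0.062 (SE; adjusted p = 4.98e-13) in Rb1 KO and 0.51 ± 0.062 (SE; adjusted p = 7.99e-05) in Kdm5a KO, and DKO exceeded Rb1 KO by 0.95 ± 0.062 (SE; adjusted p = 9.12e-08).

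Col13a1, a collagen of the nerve-muscle synapse, had 70.5 and 75.9 in DKO cultures, 24.3 and 19.0 in Rb1 KO cultures, 657 and 644 in Kdm5a KO cultures and 410.4 and 392 in WT cultures and the same order. Changes against WT were -2.44 ± 0.18 (SE; adjusted p = 1.08e-07) in DKO and -4.16 ± 0.18 (SE; adjusted p = 5.50e-10) in Rb1 KO, and DKO exceeded Rb1 KO by 1.72 ± 0.18 (SE; adjusted p = 7.79e-06). The rise of Col13a1 in Kdm5a KO against WT (0.70 ± 0.18 SE, adjusted p = 0.0143) did not pass without Kdm5a KO replicate 1 (adjusted p = 0.0868), Kdm5a KO replicate 2 (0.0738) or WT replicate 2 (0.0556). Col23a1 had 139.9 and 157 in DKO cultures, 85.1 and 94.1 in Rb1 KO cultures, 1389.9 and 1091 in Kdm5a KO cultures and 474 and 423 in WT cultures. Kdm5a KO stood far above the other groups, at 1.46 ± 0.15 (SE; adjusted p = 2.29e-05) against WT, while DKO was -1.59 ± 0.15 (SE; adjusted p = 8.62e-07) and Rb1 KO -2.31 ± 0.15 (SE; adjusted p = 1.93e-08). Col17a1, the chain of epithelial hemidesmosomes, had 58.4 and 36.3 in DKO cultures, 21.6 and 37.1 in Rb1 KO cultures, 108 and 109 in Kdm5a KO cultures and 124 and 156 in WT cultures and was -2.26 ± 0.32 (SE; adjusted p = 3.55e-05) in Rb1 KO and -1.57 ± 0.32 (SE; adjusted p = 7.96e-04) in DKO against WT. Epithelial markers summed to 27.3 to 28.4 in DKO, 4.53 to 6.75 in Rb1 KO, 29.8 to 31.5 in Kdm5a KO and 2.13 to 73.0 in WT cultures, with Epcam at 0 in Kdm5a KO and WT, and their part was not tested.

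The skeletal muscle markers named above have the same order between Rb1 KO, DKO and WT as Col25a1, Col13a1 and Col19a1, and whether these chains follow muscle content was not tested. Myh3, embryonic myosin, was 20397 and 21204 in DKO, 4384 and 4678 in Rb1 KO, 99141 and 107427 in Kdm5a KO and 77084 and 76912 in WT cultures. Of the 10 skeletal muscle markers, only Myh3 was higher in Kdm5a KO than in WT, and 8 were lower. Of all genes, 13.4% were higher and 13.8% lower there. Of the remaining chains, Col26a1 had 995 and 1003 in DKO cultures, 732 and 713 in Rb1 KO cultures, 1151 and 1016 in Kdm5a KO cultures and 1403 and 1332 in WT cultures, lowest in Rb1 KO (-0.92 ± 0.081 SE, adjusted p = 3.99e-07 against WT). Col28a1, a chain of peripheral nerve, had 90.5 and 87.7 in DKO cultures, 25.7 and 15.4 in Rb1 KO cultures, 149 and 159.6 in Kdm5a KO cultures and 90.9 and 78.9 in WT cultures. It was lower in Rb1 KO than in WT (-2.04 ± 0.28 SE, adjusted p = 2.49e-05) and higher in DKO than in Rb1 KO (2.11 ± 0.28 SE, adjusted p = 4.80e-05). Its rise in Kdm5a KO against WT (0.86 ± 0.28 SE, adjusted p = 0.0377) did not pass without Kdm5a KO replicate 1 (adjusted p = 0.113), Kdm5a KO replicate 2 (0.149), WT replicate 1 (0.0577) or WT replicate 2 (0.119).

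The difference that goes with Kdm5a loss itself differed between Rb1 genotypes for 28 of 40 chains, beside 38.3% of all genes. This interaction asks whether DKO against Rb1 KO differs from Kdm5a KO against WT. It passed for 8 chains with a positive and 20 with a negative sign of 40, beside 18.8% and 19.5% of all genes, and the median was -0.91, against -0.02. The most negative was Col12a1 at -4.50 ± 0.15 (SE; adjusted p = 5.14e-10), higher in Kdm5a KO than in WT but lower in DKO than in Rb1 KO. Col11a1 (-3.69), Col5a2 (-3.08) and Col8a2 (-2.77) followed. Fibrillar chains were negative in 7 of 11 cases and positive in 2. Among chains that passed, the largest positive value was that of Col24a1 (1.92 ± 0.42 SE, adjusted p = 0.00333), then Col19a1 (1.48).

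In purified myotubes, DKO had less than WT of 3 type IV chains (Col4a1, Col4a2 and Col4a5), of Col12a1 and of 3 of the 4 membrane-spanning chains, and more of both multiplexins. Of 37 chains tested there, 8 were higher and 15 lower in DKO than in WT, beside 21.0% and 18.6% of all genes. Their median log2 change was -0.33, against -0.05. Col4a3, Col6a6 and Col9a1 were under the minimum in these 4 libraries. Col10a1 and Col15a1, among the 8 higher, averaged 1.86 and 4.04 in purified WT and passed the minimum of 10 only through DKO. Col14a1, among the 15 lower, averaged 9.06 in purified DKO and passed it only through WT. Skeletal muscle markers summed to 180896 to 181668 in purified DKO, against 592094 to 603352 in purified WT, and fibroblast markers to 16576 to 26876 in DKO, against 9135 to 11341 in WT, so the purified groups still differ in these markers, and their part was not tested. Of the 10 skeletal muscle markers, 7 were lower and 1 higher in purified DKO than in purified WT, and 2 did not pass. Ckm was the higher one, at 2306 and 2298 in purified DKO and 463 and 432 in purified WT. Fn1 made up most of the fibroblast sums, at 14826 and 25295 in purified DKO and 5466 and 7152 in purified WT. Of 8 fibroblast markers tested there, 5 were higher and 2 lower in DKO than in WT. Pdgfrb had 71.6 and 142 in purified DKO and 1457 and 1815 in purified WT, and Fbn1 546 and 680 against 1784 and 1923. Lum was at 0 in purified WT and at 3.25 and 0 in purified DKO.

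Col4a1 had 2475 and 2899.8 in purified DKO myotubes and 11734 and 12446 in purified WT myotubes. Col4a2 had 2612 and 3737 in purified DKO myotubes and 15312 and 15961 in purified WT myotubes. Both DKO libraries lay far below both WT libraries, at -2.17 ± 0.20 (SE; adjusted p = 0.00207) for Col4a1 and -2.32 ± 0.24 (SE; adjusted p = 0.00294) for Col4a2. Col4a5 had 268 and 187 in purified DKO myotubes and 2309 and 2298 in purified WT myotubes, a change of -3.36 ± 0.25 (SE; adjusted p = 0.00146). Against them, Col15a1 had 169 and 265 in purified DKO myotubes and 1.86 and 6.21 in purified WT myotubes, from 357 reads in DKO and 6 in WT. Its DKO libraries were 50.9-fold WT (95% exact interval 23.1 to 139.5), a fitted log2 change of 5.55 ± 0.59 SE that was 4.88 without WT replicate 1 and 6.22 without WT replicate 2. It passed the minimum in the purified libraries only through DKO, so its difference from WT is given as a description. Col18a1 had 2750.0 and 4804 in purified DKO myotubes and 636 and 603 in purified WT myotubes, a change of 2.55 ± 0.31 (SE; adjusted p = 0.00414).

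Of the membrane-spanning chains, Col25a1 had 71.6 and 47.1 in purified DKO myotubes and 2765 and 2692 in purified WT myotubes and changed by -5.53 ± 0.27 (SE; adjusted p = 9.02e-04). Col13a1 had 11.4 and 19.9 in purified DKO myotubes and 491 and 458 in purified WT myotubes and changed by -4.89 ± 0.36 (SE; adjusted p = 0.00147). Both DKO libraries lay far below both WT libraries for these genes. Col17a1 fell too (-2.84 ± 0.33 SE, adjusted p = 0.00386). Col23a1 went the other way, with 86.2 and 111 in purified DKO myotubes and 13.0 and 34.8 in purified WT myotubes. Its rise (2.14 ± 0.54 SE, adjusted p = 0.032) did not pass without DKO replicate 2 (adjusted p = 0.0581) or WT replicate 1 (log2 change 1.46, adjusted p = 0.181), and was 2.82 without WT replicate 2.

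Of 11 fibrillar chains, 1 was higher and 2 lower in purified DKO myotubes, beside 21.0% and 18.6% of all genes. The share that fell was thus near that of all genes. Col1a1 had 1228 and 1577 in purified DKO myotubes and 688 and 909 in purified WT myotubes, Col1a2 7046 and 5049 in purified DKO myotubes and 5308 and 6315 in purified WT myotubes and Col5a1 2774 and 3696 in purified DKO myotubes and 1892 and 2267 in purified WT myotubes, and none of the 3 passed (0.81 ± 0.25 SE, adjusted p = 0.0523, 0.04 ± 0.25 SE, adjusted p = 0.899 and 0.63 ± 0.23 SE, adjusted p = 0.0865). The 2 groups overlapped for Col1a2. Col3a1 had 940.0 and 638 in purified DKO myotubes and 2039 and 2249 in purified WT myotubes and Col5a2 1782 and 991 in purified DKO myotubes and 4240.0 and 4896 in purified WT myotubes. Both were lower in DKO (-1.47 ± 0.25 SE, adjusted p = 0.0108 and -1.78 ± 0.32 SE, adjusted p = 0.0123), but neither passed without WT replicate 1 (adjusted p = 0.108 and 0.0851) or WT replicate 2 (0.129 and 0.107). Col5a3 had 119 and 243 in purified DKO myotubes and 26.0 and 22.4 in purified WT myotubes, and its rise (2.76 ± 0.44 SE, adjusted p = 0.00876) did not pass without WT replicate 2 (adjusted p = 0.0554). Col11a1 had 218 and 168 in purified DKO myotubes and 214 and 266 in purified WT myotubes, with overlapping groups. Col24a1 had 8.13 and 13.6 in purified DKO myotubes and 18.6 and 29.8 in purified WT myotubes, lower in both DKO libraries but not past the threshold (-1.09 ± 0.52 SE, adjusted p = 0.154).

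Fibril-associated chains fell in 4 of 6 cases and rose in 2, beside 18.6% and 21.0% of all genes. Col12a1 had 268 and 294 in purified DKO myotubes and 2115 and 2174 in purified WT myotubes and changed by -2.93 ± 0.19 (SE; adjusted p = 0.00123). Col19a1 had 361 and 339 in purified DKO myotubes and 2240.0 and 2000.2 in purified WT myotubes and changed by -2.59 ± 0.19 (SE; adjusted p = 0.00147). For both, each DKO library lay below each WT library. Col14a1, also among the 4, had 9.76 and 8.37 in purified DKO myotubes and 57.7 and 34.8 in purified WT myotubes. Its log2 change of -2.19 was -1.83 without WT replicate 1 and -2.55 without WT replicate 2. It passed the minimum in the purified libraries only through WT, so its difference is given as a description. Col16a1 had 176 and 179 in purified DKO myotubes and 29.8 and 23.6 in purified WT myotubes and rose (2.70 ± 0.31 SE, adjusted p = 0.00366). Col9a3 had 309 and 305 in purified DKO myotubes and 70.7 and 59.6 in purified WT myotubes, and its rise (2.22 ± 0.26 SE, adjusted p = 0.00377) did not pass without WT replicate 2 (adjusted p = 0.0516). Col20a1 fell by 3.16 and Col26a1 by 2.52 on the log2 scale.

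The type VI chains split. Col6a1 had 452 and 674 in purified DKO myotubes and 878 and 771 in purified WT myotubes and did not pass. Col6a2 had 166 and 242 in purified DKO myotubes and 432 and 448 in purified WT myotubes, and Col6a3 had 161 and 168 in purified DKO myotubes and 39.1 and 47.2 in purified WT myotubes. Col6a2 was lower (-1.13 ± 0.27 SE, adjusted p = 0.0273) and Col6a3 higher (1.91 ± 0.29 SE, adjusted p = 0.00762) in DKO, and neither passed without WT replicate 1 (adjusted p = 0.221 and 0.101) or WT replicate 2 (0.235 and 0.0691). Col8a1 had 56.9 and 91.0 in purified DKO myotubes and 662 and 728 in purified WT myotubes and fell (-3.25 ± 0.31 SE, adjusted p = 0.00231). Col10a1 had 40.7 and 46.0 in purified DKO myotubes and 0 and 3.73 in purified WT myotubes, from 69 reads in DKO and 3 in WT, a ratio of 19.7 (95% exact interval 6.45 to 97.7).

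The DKO effect differed between purified and mixed libraries for 22 of 39 chains (against 24.8% of all genes), 4 with a higher and 18 with a lower value in purified, beside 11.6% and 13.2% of all genes. Col8a1 differed most downward, at -4.35 ± 0.32 (SE; adjusted p = 2.64e-05): it rose in mixed DKO and fell in purified DKO. Col25a1 (-3.33 ± 0.23 SE, adjusted p = 2.06e-05) and Col4a2 (-1.83 ± 0.22 SE, adjusted p = 3.32e-04) were further below WT in purified than in mixed DKO. Col15a1 differed upward, at 2.66 ± 0.57 (SE; adjusted p = 0.00816), and at 1.99 without purified WT replicate 1 and 3.33 without replicate 2. The library types differ in RNA selection, read length and recovery, and these cannot be told apart from the effect of isolating myotubes.

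**Figure D5:**
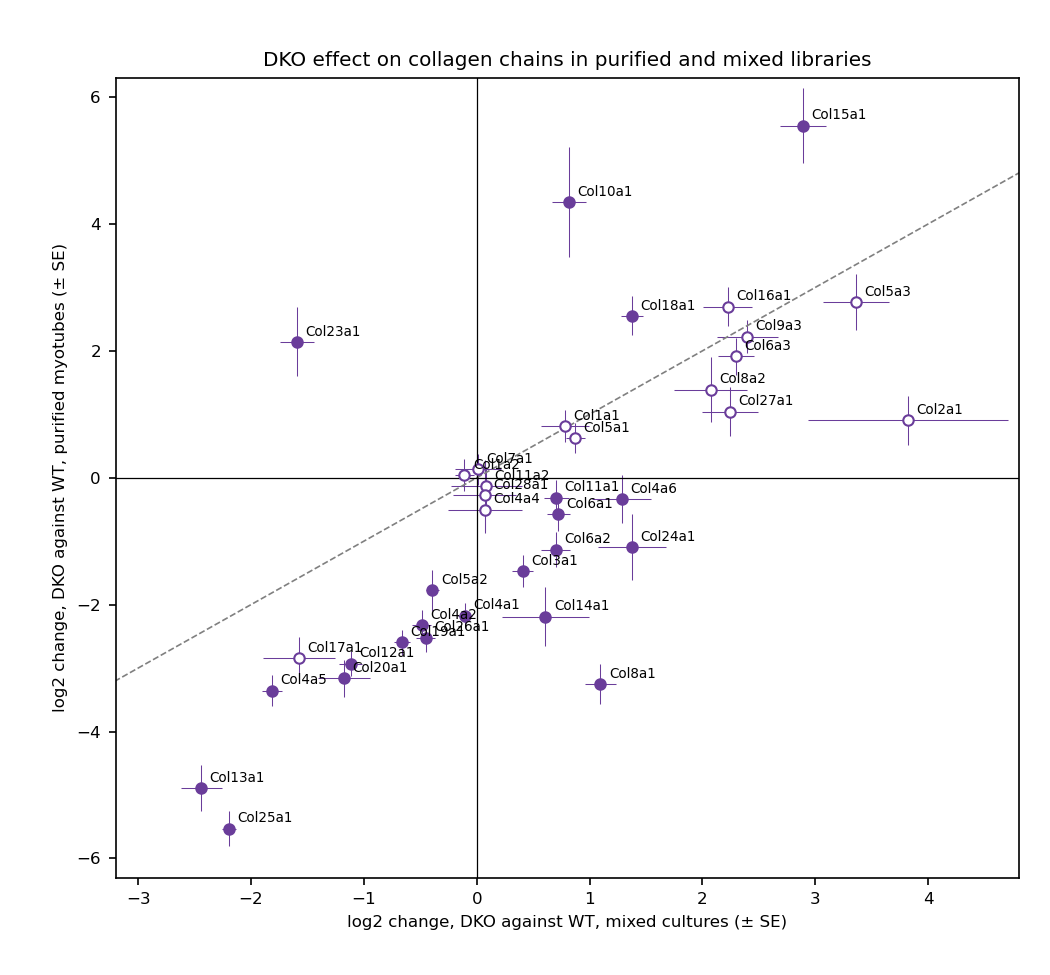
Log2 change of 37 collagen chains in DKO against WT, in mixed cultures (x axis) and in purified myotubes (y axis), with SE bars; the dashed line marks equal change, and filled points passed the test of the difference. Col15a1, Col10a1, Col18a1 and Col23a1 lie above the line, and Col8a1, Col25a1 and Col13a1 below it.

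For chains of the same molecule, per-kilobase ratios overlapped between all mixed groups for type VI, while for types I and V some groups stood apart. Col6a1 to Col6a2 per kilobase was 4.77 and 5.40 in DKO, 5.16 and 4.73 in Rb1 KO, 6.22 and 4.85 in Kdm5a KO and 5.34 and 4.70 in WT cultures. Col1a1 to Col1a2 was 0.172 and 0.159 in DKO, 0.213 and 0.227 in Rb1 KO, 0.148 and 0.0948 in Kdm5a KO and 0.0903 and 0.0876 in WT. Col5a1 to Col5a2 stood at 0.878 and 0.851 in DKO, 0.404 and 0.441 in Rb1 KO, 0.416 and 0.383 in Kdm5a KO and 0.361 and 0.358 in WT. Among mixed libraries only DKO had Col5a1 close to Col5a2. Purified DKO myotubes had a ratio of 1.76 and 4.21, against 0.504 and 0.523 in purified WT myotubes. Per-kilobase levels use the full merged exon length, so these ratios depend on which exons the cells use.

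Most genes for folding and modifying collagen inside the cell were lower in DKO than in WT. Of 19 tested genes for modification and folding inside the cell, 11 were higher and 7 lower in Rb1 KO than in WT (median 0.25), beside 36.8% and 34.3% of all genes. In DKO against WT, 4 were higher and 13 lower (median -0.93), beside 34.0% and 33.9% of all genes. In DKO against Rb1 KO, 2 were higher and 17 lower, beside 23.1% and 24.2%. Serpinh1, the collagen chaperone, had 3713 and 3637 in DKO cultures, 9786 and 9634 in Rb1 KO cultures, 7244 and 7571 in Kdm5a KO cultures and 9198 and 9694 in WT cultures. DKO was lowest, at -1.36 ± 0.049 (SE; adjusted p = 1.50e-10) against WT and -1.40 ± 0.049 (SE; adjusted p = 3.60e-10) against Rb1 KO. Sparc, a collagen-binding glycoprotein, had 9186 and 8717 in DKO cultures, 20877 and 22620.3 in Rb1 KO cultures, 24542 and 25234 in Kdm5a KO cultures and 28729.5 and 29777 in WT cultures and was -1.71 ± 0.05 (SE; adjusted p = 2.97e-11) in DKO against WT. P4ha1, a subunit of the prolyl hydroxylase, had 1319.8 and 1319.9 in DKO cultures, 3513 and 3404 in Rb1 KO cultures, 3175 and 3120.5 in Kdm5a KO cultures and 2812 and 3009 in WT cultures and was -1.39 ± 0.058 (SE; adjusted p = 1.74e-09) in DKO against Rb1 KO.

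Enzymes of propeptide removal and cross-linking were higher in Rb1 KO than in WT in 10 of 13 cases and lower in 2, beside 36.8% and 34.3% of all genes. In DKO against WT, 6 of 13 were higher and 4 lower (median 0.41), beside 34.0% and 33.9%. DKO against Rb1 KO had 9 of 13 lower and 1 higher, beside 24.2% and 23.1%. Lox, lysyl oxidase, had 558 and 565 in DKO cultures, 3540.4 and 3910.0 in Rb1 KO cultures, 488 and 530.0 in Kdm5a KO cultures and 339 and 521 in WT cultures, and Loxl2, its relative, had 251 and 254 in DKO cultures, 1341 and 1426 in Rb1 KO cultures, 161 and 167 in Kdm5a KO cultures and 169.9 and 158 in WT cultures. Both were highest in Rb1 KO, at 3.14 ± 0.15 (SE; adjusted p = 1.25e-09) and 3.07 ± 0.12 (SE; adjusted p = 1.71e-10) against WT, and lower in DKO than there, at -2.73 ± 0.15 (SE; adjusted p = 2.23e-08) and -2.45 ± 0.12 (SE; adjusted p = 7.18e-09).

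The 11 tested genes for fibril-binding proteins were all higher in Rb1 KO than in WT (median 3.06), where 36.8% of all genes were, and 10 of 11 were lower in DKO than in Rb1 KO, beside 24.2% of all genes. In DKO against WT, 3 were higher and 2 lower, beside 34.0% and 33.9%. Postn, periostin, had 1259 and 1205 in DKO cultures, 19721 and 20093 in Rb1 KO cultures, 309 and 339 in Kdm5a KO cultures and 887 and 1158 in WT cultures. Thbs1, thrombospondin, had 660.2 and 686 in DKO cultures, 13982 and 15561 in Rb1 KO cultures, 2057 and 1795 in Kdm5a KO cultures and 1202 and 1486 in WT cultures, and the proteoglycan Bgn had 1506 and 1571 in DKO cultures, 9121 and 10710.1 in Rb1 KO cultures, 1245 and 1182 in Kdm5a KO cultures and 1607 and 1542 in WT cultures. Rb1 KO stood apart from the other groups for all 3, at 4.30, 3.46 and 2.65 against WT on the log2 scale. Postn, Fn1 and Lum of this list also stand in the fibroblast marker list.

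Of 8 collagen receptors, 5 were higher and 1 lower in Rb1 KO than in WT, beside 36.8% and 34.3% of all genes. The call of Itga10, 1 of the 5, was lost under DESeq2 (adjusted p = 0.0685), without Rb1 KO replicate 1 (0.0627) or 2 (0.197) and without WT replicate 2 (0.396). In DKO against Rb1 KO, 6 of 8 were lower, beside 24.2% of all genes. Mrc2, the receptor that takes collagen into fibroblasts, had 879 and 869 in DKO cultures, 2304 and 2732 in Rb1 KO cultures, 144 and 122 in Kdm5a KO cultures and 309 and 365 in WT cultures, at 2.90 ± 0.12 (SE; adjusted p = 3.61e-10) in Rb1 KO and -1.34 ± 0.12 (SE; adjusted p = 9.43e-06) in Kdm5a KO against WT. Itgb1, the shared beta chain of the collagen-binding integrins, had 20606 and 20418 in DKO cultures, 32731 and 31982 in Rb1 KO cultures, 50359 and 51905 in Kdm5a KO cultures and 40107 and 41636 in WT cultures and was lowest in DKO (-0.99 ± 0.042 SE, adjusted p = 5.80e-10 against WT). In Kdm5a KO against WT, where 13.4% of all genes were higher and 13.8% lower, 2 of 19 modification and folding genes were higher and 7 lower, 1 of 13 propeptide and cross-linking genes were higher and 4 lower, 3 of 11 fibril-binding genes were higher and 5 lower, 1 of 8 receptors were higher and 3 lower. Colq, the collagen-like tail that anchors acetylcholinesterase at the synapse, lies outside the symbol pattern and had 248 and 211 in DKO cultures, 119 and 94.1 in Rb1 KO cultures, 46.1 and 46.9 in Kdm5a KO cultures and 140.0 and 109 in WT cultures. Kdm5a KO was lowest, at -1.39 ± 0.22 (SE; adjusted p = 6.22e-04) against WT, and DKO highest, at 2.27 ± 0.22 (SE; adjusted p = 1.30e-06) against Kdm5a KO.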

How the data were processed

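RNA was sequenced from 12 libraries in 6 groups of 2, 8 of mixed cultures and 4 of purified myotubes. The deposited values are a signal: reads per gene divided by a size factor for each library, which the authors made with TopHat 1.2.0, build mm9 and DESeq, per the submitters' processing notes. The counter, annotation and strand setting are not given in the sources used here. Divided by what 1 read is worth, 100% of values came out whole within 0.01. Libraries of mixed cultures had 40-base reads and those of purified myotubes 36-base reads, per the labels' protocols.

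Symbols and exon lengths came from GENCODE M21, which named 30983 of 36229 identifiers. log2(value + 1) was tested with limma 3.58.1 (R 4.3.3) with an intensity trend, over genes averaging at least 10, with Benjamini-Hochberg adjustment over all of them and a threshold of 0.05. The 8 mixed libraries formed one fit (17199 genes), the 4 purified another (16670), and all 12 were fitted together for the difference in DKO effect (17273). The fits were tested on simulated data. Alternatives were pseudocounts of 0.5 and 5, no filter, no trend, TMM scaling, edgeR 4.0.16, DESeq2 1.42.0 on the recovered reads, a replicate block, only the groups compared, and leaving out each library.

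Values in every library are given for a set of chains chosen for their class and for the 4 largest rises and falls per comparison. From each companion list up to 4 genes with the smallest p are named, beside Kdm5a, Rb1, Xist, Ddx3y, Myh3, Ckm, Postn and single cell type markers. Members and lists were chosen with earlier results of these data known. Sequences are credited to RefSeq (GRCm38.p6) and GENCODE M21. Intervals on reads are exact and cover counting error only.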

Additional observations from a re-analysis of the deposited data

Results flagged for a closer look

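Of the 40 collagen chains, 28 had a Kdm5a difference that itself differed between Rb1-null and Rb1-intact cultures, by the interaction term of the limma fit. The share over all genes was 38.3%. Among chains that passed, the largest positive interactions on the log2 scale were those of Col24a1 (1.92), Col19a1 (1.48), Col28a1 (1.25) and Col5a3 (1.12). The call of Col28a1 was lost without any of 6 single libraries, at adjusted p up to 0.0856 (without DKO replicate 1), and that of Col5a3 without any of 7, at adjusted p up to 0.159 (without DKO replicate 2), and with the replicate block (0.0571). Those most negative were Col12a1 (-4.50), Col11a1 (-3.69), Col5a2 (-3.08) and Col8a2 (-2.77).

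In 22 of 39 chains the DKO difference was not the same in purified as in mixed libraries, beside 24.8% of all genes. Higher in purified were Col23a1 (3.73), Col10a1 (3.53), Col15a1 (2.66) and Col18a1 (1.18), on the log2 scale. The call of Col18a1 was lost without any of 5 single libraries, among them WT mixed replicate 1 (adjusted p = 0.074). Without purified WT replicate 1 and without replicate 2 the values were 3.05 and 4.41 for Col23a1, and 2.41 and 4.65 for Col10a1. Purified WT libraries held few reads of Col10a1 and Col15a1, 3 and 6 in all. Lower in purified were Col8a1 (-4.35), Col25a1 (-3.33), Col14a1 (-2.80) and Col24a1 (-2.47).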

How the results depend on the processing

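All 109 alternative counts of collagen chains past the threshold stayed within 1.5 times the reported count. Of 2946 alternative values for the 217 chain and comparison pairs that passed, 2845 kept direction and threshold, 101 kept direction only and 0 reversed. Col1a2 in purified DKO against WT, which did not pass at 0.04, turned to -0.08 without WT purified replicate 1 and -0.20 without DKO purified replicate 1, with a range up to 0.28 over the libraries left out. Leaving out 1 library gave 14 to 19 chains for Kdm5a KO against WT, 34 to 36 for Rb1 KO, 30 to 31 for DKO, 28 to 29 for DKO against Rb1 KO, 27 to 30 for DKO against Kdm5a KO, 25 to 29 for the interaction, 16 to 26 for purified DKO against WT and 19 to 25 for purified minus mixed. With the replicate block the counts were 17, 36, 30, 29, 33, 27, 25 and 22 in the same order, and with edgeR on the recovered reads 18, 36, 30, 30, 32, 29, 24 and 22. Replicate numbers do not pair the samples, since same-numbered deviations correlated between -0.047 and 0.052. With 2 libraries a group, Col2a1 in WT, Col9a1 in Kdm5a KO and Col10a1 in purified WT rest on a handful of reads, and a fold there depends on single libraries.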
